A study of Mus musculus with 8 samples.

Results

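Slc5a7, Sncg, Folh1, Prr32, Ncan, Golga7b, Pcp4l1, Chl1 and Syngr1 are better known from neurons or from other tissues than from fat. These 9 of the 30387 genes in the deposited table were chosen by their measured normalized counts in white adipocytes, which differed strongly by Yap/Taz genotype or by diet. The genotype and diet differences of the 9 genes are therefore a description of what selected them, and no test is given for them. Tests are given instead for listed relatives and partners of the 9 genes.

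Total RNA of isolated primary adipocytes of the epididymal white fat pad was sequenced in 8 libraries from 4 groups of 2 mice. Ad-Yap/Taz-KO mice carried Adipoq-Cre together with floxed alleles of Yap (fl/fl) and of Taz (fl/fl), and lost both genes once the adiponectin promoter switched on Cre, which restricts the deletion to adipocytes and leaves the other cells of the fat pad with intact genes. Wild-type (WT) littermates served as controls, and mice of each genotype received standard diet (SD, called normal chow in the labels) or high-fat diet (HFD) for 4 weeks. The series description places the start of feeding at 5 weeks of age, and the methods of the study give a later start for HFD feeding.

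YAP and TAZ are transcriptional cofactors that enter the nucleus when the Hippo kinases are inactive and act on genes mainly through the TEAD family of DNA-binding proteins. Most of the 9 genes are textbook components of the synapse or of the nervous system's matrix: they transport the precursor of acetylcholine, sit on synaptic vesicles, cleave a neuropeptide, surround neurons or guide axons. Gamma-synuclein (Sncg) is an exception in that it is also an established adipocyte protein.

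The values are normalized counts, that is, reads per gene divided by a size factor for each library, on a scale where 1 read was worth between 0.795 and 1.135 units. The libraries held about 14000000 to 22300000 reads on genes. A total of 3 reads in a library is taken as the floor below which a gene is not separable from 0, a limit that covers counting error only. All 9 genes averaged 5 or more over the 8 libraries and so passed the filter on low values, which 18800 genes passed. Several of them passed it through their high group alone. In the range of 1000 to 5000 reads, the WT HFD libraries resembled each other more than the libraries of any other group did. There, replicates differed by a squared amount 6.19 times the counting variance in WT HFD and 35.26 to 92.34 times in the others. In the range of 5 to 20 reads the WT HFD libraries were not the closest, at 4.88 times against 4.68 to 6.47 times in the others. For the WT HFD group both values are given without a standard deviation. Repeats are described as separate mice, and p-values that use this pair would be too small if its libraries shared material, which was not tested. The targeted genes were lower in the libraries labelled as knockout: on SD, Wwtr1, which encodes TAZ, stood at 5594 and 4743 normalized counts in the WT libraries against 2441 and 1957 after the deletion, and on HFD at 7121 and 6807 against 2060 and 2707 (log2 changes -1.24 and -1.56, limma adjusted p = 0.00097 and 3.1e-05). Yap1 stood at 2776 and 2717 against 1669 and 1699 on SD, and at 2468 and 2333 against 1549 and 2068 on HFD (-0.71 and -0.42, limma adjusted p = 0.024 and 0.059), and its call on SD was lost in 7 of 13 alternatives, among them without any 1 of the 4 libraries (-0.72 to -0.69).

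Of the 9 genes, 6 (Slc5a7, Sncg, Folh1, Prr32, Ncan and Golga7b) were highest in WT adipocytes on HFD, whereas Pcp4l1, Chl1 and Syngr1 were at or near the floor there. In no Ad-Yap/Taz-KO library on HFD did a gene of the first set reach the level of a WT HFD library, and in no WT HFD library did a gene of the second set reach an Ad-Yap/Taz-KO HFD library. Groups of 2 libraries that do not differ are set apart like this with a probability of 0.333. The share of all genes set apart in this way was not counted. Since the contrasts of genotype and diet selected the genes, the values describe the selection and no calls are given for the 9. For scale, in the fit over all genes 17.1 percent of those tested were called higher and 15.1 percent lower in Ad-Yap/Taz-KO than in WT adipocytes on HFD, and 3.21 and 1.5 percent on SD. HFD against SD gave 8.74 percent higher and 9.22 percent lower in WT adipocytes, and 0.383 and 0.691 percent in Ad-Yap/Taz-KO adipocytes. Called here means an adjusted p no higher than 0.05 together with a log2 change of 0.59 or more in either direction.

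**Figure D1:**
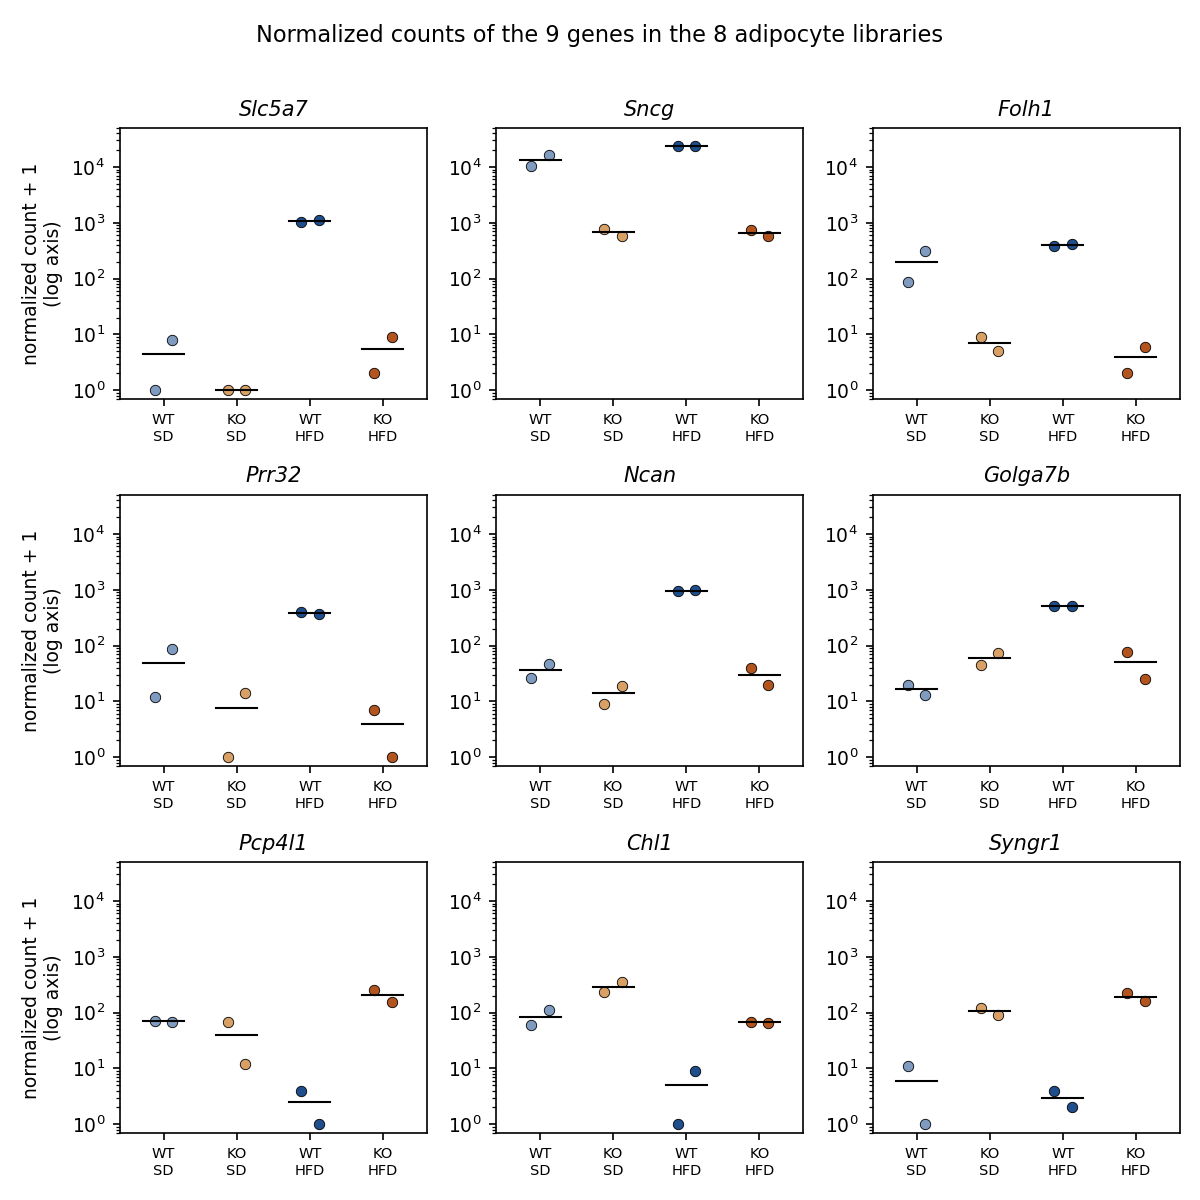
Normalized counts plus 1 (log axis) of the 9 genes in each of the 8 adipocyte libraries, by genotype (WT or Ad-Yap/Taz-KO, written KO) and diet (SD or HFD). Points are libraries (2 a group) and bars are group means. The upper 6 genes have their highest values in the WT HFD libraries, and the lower 3 their lowest or near-lowest values there.

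Among the genes of transmitter supply and synaptic vesicles, Slc5a7 encodes the high-affinity choline transporter that supplies acetylcholine synthesis in cholinergic nerve endings. Slc5a7 (ENSMUSG00000023945, minus strand of chr17:54273594-54299034 in GRCm38) had 0 and 7 normalized counts in WT SD libraries, 0 and 0 in Ad-Yap/Taz-KO SD libraries, 1033 and 1131 in WT HFD libraries and 1 and 8 in Ad-Yap/Taz-KO HFD libraries. It was thus close to or under the floor in 3 groups and abundant in the remaining one. The WT HFD mean of 1082 was 309-fold above the WT SD mean of 3.5 and 240-fold above the Ad-Yap/Taz-KO HFD mean of 4.5. On the log2(value + 1) scale these differences were 8.58 (7.01 to 10.14 over the 4 pairs of libraries) and -7.99 (-9.14 to -6.84). The lower groups rest on 6.2 and 11.1 reads, so the folds are imprecise. Without WT SD replicate 2, the log2 difference between genotypes on SD was 0.00.

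Sncg encodes gamma-synuclein, a small protein of nerve endings and of fat cells. Sncg (ENSMUSG00000023064, minus strand of chr14:34370274-34374789) had 10237 and 16667 normalized counts in WT SD libraries, 769 and 587 in Ad-Yap/Taz-KO SD libraries, 23722 and 23424 in WT HFD libraries and 751 and 568 in Ad-Yap/Taz-KO HFD libraries. The genotypes were far apart on each diet, and the Ad-Yap/Taz-KO libraries of both diets overlapped. On SD the WT mean was 19.8-fold the Ad-Yap/Taz-KO mean (13452 ± 4547 against 678 ± 129, SD, n = 2 each) and on HFD 35.7-fold. Per kilobase of exon, Sncg ranked 15 of 30259 genes in WT SD and 12 in WT HFD adipocytes, but only 597 (SD) and 568 (HFD) after the deletion. Even where it was low it was therefore more abundant per length than most genes, with 796 and 774 normalized counts per kilobase. The WT mean on HFD was 1.75-fold that on SD, a log2 difference of 0.85 (0.49 to 1.21 over pairs of libraries), which became 0.44 when all libraries were scaled to the same total.

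Syngr1 encodes synaptogyrin 1, an integral membrane protein of synaptic vesicles. Syngr1 (ENSMUSG00000022415, plus strand of chr15:80091334-80119501) had 10 and 0 normalized counts in WT SD libraries, 121 and 90 in Ad-Yap/Taz-KO SD libraries, 3 and 1 in WT HFD libraries and 224 and 159 in Ad-Yap/Taz-KO HFD libraries. It was low in all WT libraries and higher in all Ad-Yap/Taz-KO libraries, the reverse of Sncg. The Ad-Yap/Taz-KO mean was 21.1-fold the WT mean on SD and 95.8-fold on HFD, with 9.9 and 4.1 reads behind the WT groups. The log2 difference on SD of 4.99 ran from 3.05 to 6.93 over the 4 pairs of libraries and was 6.72 without WT SD replicate 1, and that on HFD of 6.07 ran from 5.32 to 6.81. Within Ad-Yap/Taz-KO adipocytes the HFD mean was 1.82-fold the SD mean.

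Of the genes acting at the cell surface and in the matrix, Folh1 encodes glutamate carboxypeptidase II, also called prostate-specific membrane antigen, which releases glutamate from the neuropeptide N-acetylaspartylglutamate and from folate polyglutamates. Folh1 (ENSMUSG00000001773, minus strand of chr7:86718977-86775943) had 85 and 308 normalized counts in WT SD libraries, 8 and 4 in Ad-Yap/Taz-KO SD libraries, 383 and 422 in WT HFD libraries and 1 and 5 in Ad-Yap/Taz-KO HFD libraries. Every WT library lay above every Ad-Yap/Taz-KO library, and the WT SD libraries were spread widely. The WT mean was 32.8-fold that of Ad-Yap/Taz-KO adipocytes on SD and 134-fold on HFD. These are log2 differences of -4.60 (-5.95 to -3.26 over the pairs of libraries) and -6.86 (-7.72 to -6.00). The largest values with 1 library left out were -5.53 without WT SD replicate 1 and -7.65 without Ad-Yap/Taz-KO HFD replicate 2. The diet difference in WT adipocytes was 2.05-fold, with a log2 difference of 1.31 that was 0.38 without WT SD replicate 1 and 2.23 without WT SD replicate 2.

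Ncan encodes neurocan, a chondroitin sulfate proteoglycan of the lectican family that surrounds neurons in the brain. Ncan (ENSMUSG00000002341, minus strand of chr8:70093085-70120873) had 25 and 45 normalized counts in WT SD libraries, 8 and 18 in Ad-Yap/Taz-KO SD libraries, 936 and 979 in WT HFD libraries and 39 and 19 in Ad-Yap/Taz-KO HFD libraries. The WT HFD libraries stood apart from the other 6, which were all under 50. The WT HFD mean was 27.4-fold the WT SD mean and 33-fold the Ad-Yap/Taz-KO HFD mean, and on SD the genotypes differed 2.69-fold.

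Chl1 encodes the close homologue of L1, an adhesion molecule of growing axons. Chl1 (ENSMUSG00000030077, plus strand of chr6:103510586-103750211) had 58 and 108 normalized counts in WT SD libraries, 229 and 345 in Ad-Yap/Taz-KO SD libraries, 0 and 8 in WT HFD libraries and 66 and 65 in Ad-Yap/Taz-KO HFD libraries. It was lower on HFD than on SD in both genotypes and higher in Ad-Yap/Taz-KO than in WT libraries on both diets, with no overlap in any of these 4 comparisons. The Ad-Yap/Taz-KO mean was 3.46-fold the WT mean on SD and 16.4-fold on HFD. The SD mean was 20.8-fold the HFD mean in WT and 4.38-fold in Ad-Yap/Taz-KO adipocytes, where the WT HFD group rests on 7.5 reads. Over the pairs of libraries the log2 difference between genotypes on HFD, 4.47, ran from 2.87 to 6.07, and that between diets in WT adipocytes, -4.74, from -6.77 to -2.71.

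Golga7b and Pcp4l1 act inside the cell, as an accessory protein of the palmitoyl transferase Zdhhc5 and as a small relative of the calmodulin regulator Pcp4. Golga7b (ENSMUSG00000042532, plus strand of chr19:42247574-42270348) had 19 and 12 normalized counts in WT SD libraries, 44 and 74 in Ad-Yap/Taz-KO SD libraries, 518 and 516 in WT HFD libraries and 77 and 24 in Ad-Yap/Taz-KO HFD libraries. The genotypes did not overlap on either diet, and the directions were opposite: the Ad-Yap/Taz-KO mean was 3.81-fold the WT mean on SD, and the WT mean 10.2-fold the Ad-Yap/Taz-KO mean on HFD. The log2 difference on HFD, -3.55, became -4.37 when the first of the Ad-Yap/Taz-KO HFD libraries was left out and -2.73 when the other was. The WT HFD mean was 33.4-fold the WT SD mean, whereas the Ad-Yap/Taz-KO libraries of both diets overlapped.

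Pcp4l1 (ENSMUSG00000038370, minus strand of chr1:171173262-171196268) had 71 and 66 normalized counts in WT SD libraries, 66 and 11 in Ad-Yap/Taz-KO SD libraries, 3 and 0 in WT HFD libraries and 257 and 154 in Ad-Yap/Taz-KO HFD libraries. Its diet difference ran down in WT and up in Ad-Yap/Taz-KO adipocytes, and the genotypes overlapped on SD. The WT HFD group rests on 3.2 reads, which gives a ratio of 137 (95% counting interval 49.8 to 706) for Ad-Yap/Taz-KO over WT on HFD and of 45.7 (16.6 to 235) for SD over HFD in WT adipocytes. Both intervals cover the counting error of the WT HFD group alone and leave out the spread between replicates. In Ad-Yap/Taz-KO adipocytes the HFD mean was 5.34-fold the SD mean. Without Ad-Yap/Taz-KO SD replicate 2 the log2 diet difference there, 2.82, was 1.58, and without replicate 1 it was 4.06.

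Prr32 encodes a proline-rich protein. Prr32 (ENSMUSG00000037086, plus strand of chrX:45090904-45092791) had 11 and 84 normalized counts in WT SD libraries, 0 and 13 in Ad-Yap/Taz-KO SD libraries, 391 and 364 in WT HFD libraries and 6 and 0 in Ad-Yap/Taz-KO HFD libraries. The WT HFD libraries were apart from all others, and the genotypes overlapped on SD. The WT HFD mean was 126-fold the Ad-Yap/Taz-KO HFD mean, which rests on 6.4 reads, and 7.95-fold the WT SD mean. The log2 difference between genotypes on HFD, -7.16, ran from -8.61 to -5.70 over the pairs of libraries. The log2 diet difference in WT adipocytes, 3.57, was 2.15 without WT SD replicate 1 and 4.98 without replicate 2. For none of the 9 genes did an exon overlap an exon of another annotated gene (GENCODE vM21).

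**Figure D2:**
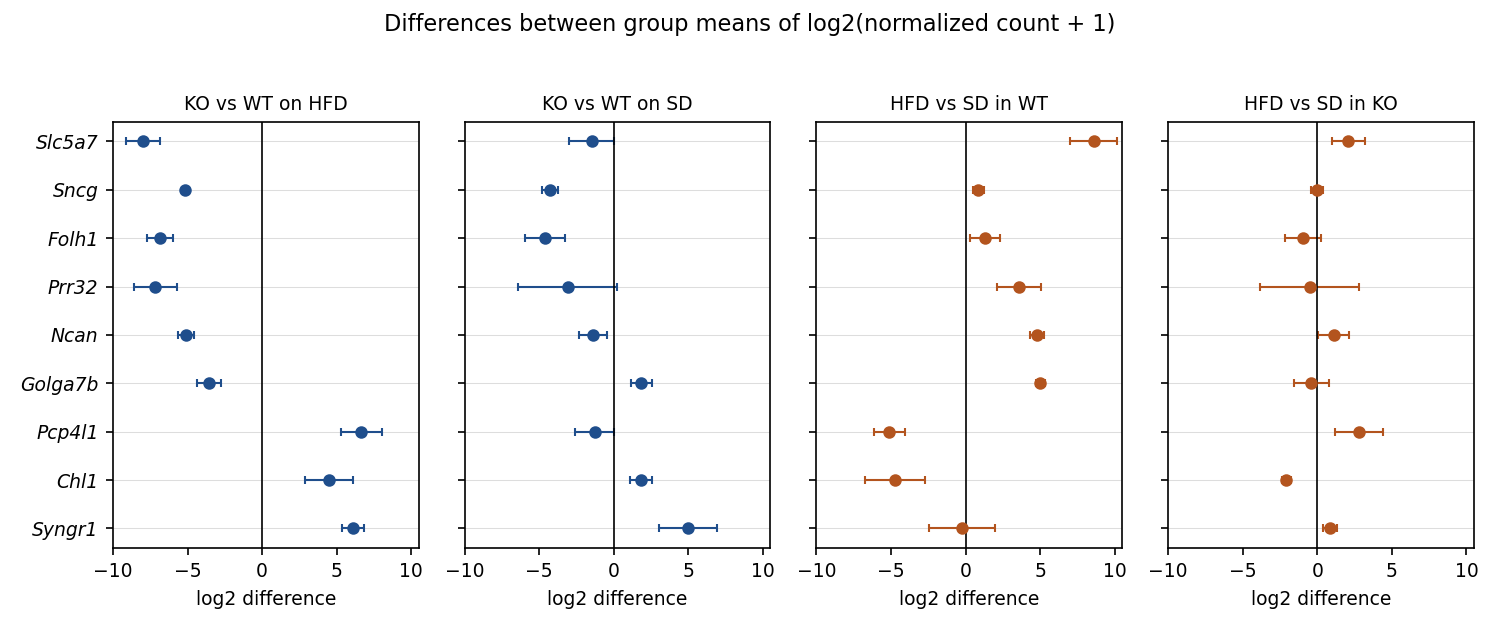
Differences between group means of log2(normalized count + 1) for the 9 genes in 4 comparisons of genotype (left panels) and diet (right panels). Points are differences of group means and bars run from the lowest to the highest difference between a library of one group and a library of the other. The differences on HFD and between diets in WT adipocytes use the same WT HFD libraries, and in the right-hand panel (Ad-Yap/Taz-KO adipocytes) no point is beyond 2.82.

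The plot of differences shows 3 kinds of pattern. Sncg, Folh1 and Syngr1 were set apart mainly by genotype: their log2 differences between genotypes were -4.28, -4.60 and 4.99 on SD and -5.17, -6.86 and 6.07 on HFD, against 0.85, 1.31 and -0.23 between diets in WT adipocytes. Slc5a7, Ncan, Prr32 and Golga7b differed between diets in WT adipocytes by 8.58, 4.79, 3.57 and 5.01, but after the deletion by 2.08, 1.11, -0.50 and -0.40. Some of the small differences rest on 1 library: when each was left out in turn, the values after the deletion ran from -2.40 to 1.40 for Prr32 and from -1.22 to 0.43 for Golga7b. Over the pairs of libraries, the value of Slc5a7 after the deletion ran from 1.00 to 3.17, and that of Syngr1 between diets in WT adipocytes from -2.46 to 2.00. Pcp4l1 and Chl1 differed between diets in WT adipocytes by -5.12 and -4.74, but after the deletion by 2.82 and -2.08. The median over the 9 genes was -5.08 between genotypes on HFD, where that of all genes tested was 0.095, and 1.31 between diets in WT adipocytes, where that of all genes was -0.078. The WT HFD libraries enter both of these comparisons.

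Across the 8 libraries, the log2(value + 1) levels of Sncg and Folh1 had a Pearson correlation of 0.97, and those of Slc5a7 and Ncan 0.96. Syngr1 ran against Folh1 (-0.97) and Sncg (-0.95), and Chl1 against Ncan (-0.90). Golga7b had a correlation of only 0.34 with Sncg. These 8 points share 4 group means, so the values describe the pattern of groups.

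The windows upstream of the start sites were read for letters that DNA-binding proteins of interest prefer. RefSeq (GRCm38.p6) gave a promoter window, from 250 bases before to 50 bases after the start site, for all 9 genes. The TEAD core CATTCC, searched on both strands, occurred in the window of 2 of the 9 genes, Prr32 and Golga7b, and in a window of 16.6 percent of the 27025 genes that had one. The AP-1 sequence TGANTCA was in none of the 9 and in 8.97 percent of those genes, and the left and right parts of the repressor element RE1, TTCAGCACC and GGACAGCGC, were in none of the 9 and in 0.433 and 0.477 percent of those genes. These are matches of letters and say nothing about occupancy. In Prr32 the core began 233 and 17 bases before the start site on the plus strand, and in Golga7b it lay 103 bases before it on the minus strand and 84 on the plus strand. The stretches before the annotated exons of these 2 genes are shown with the core in capitals (as GGAATG where it is on the opposite strand), beside that of Slc5a7, which had the largest diet difference in WT adipocytes of the 9 and no match. They are Prr32 at chrX:45090654-45090903 (plus strand), Golga7b at chr19:42247328-42247573 (plus strand) and Slc5a7 at chr17:54299035-54299284 (minus strand).
Prr32: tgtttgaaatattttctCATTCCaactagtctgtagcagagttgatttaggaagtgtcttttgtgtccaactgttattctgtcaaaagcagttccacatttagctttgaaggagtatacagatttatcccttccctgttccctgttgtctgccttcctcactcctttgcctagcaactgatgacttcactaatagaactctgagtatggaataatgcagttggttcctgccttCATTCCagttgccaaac
Golga7b: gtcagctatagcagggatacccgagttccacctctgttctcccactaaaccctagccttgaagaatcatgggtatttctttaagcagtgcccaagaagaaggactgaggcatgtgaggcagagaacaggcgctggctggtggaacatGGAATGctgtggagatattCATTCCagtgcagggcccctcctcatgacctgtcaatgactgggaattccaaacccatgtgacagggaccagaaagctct
Slc5a7: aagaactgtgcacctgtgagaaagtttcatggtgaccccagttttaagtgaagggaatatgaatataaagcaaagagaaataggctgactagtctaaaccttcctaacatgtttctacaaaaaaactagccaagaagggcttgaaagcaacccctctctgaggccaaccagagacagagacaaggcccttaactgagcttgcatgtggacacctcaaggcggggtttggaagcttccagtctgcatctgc

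The genes nearest to each of the 9 in pattern were taken from 12084 genes with a mean of at least 50, as the 3 with the highest Pearson correlation over the 8 libraries. Slc5a7 was closest to Vgll3 (0.990), a transcriptional cofactor of the vestigial-like family, which had 80 and 274 normalized counts in WT SD, 69 and 94 in Ad-Yap/Taz-KO SD, 2599 and 2593 in WT HFD and 163 and 172 in Ad-Yap/Taz-KO HFD libraries, and then to Ptpru and Cald1. Vgll3 was thus, like Slc5a7, far higher in WT HFD libraries than in the other 6. Sncg was closest to Amotl2 (0.994), an angiomotin family member, with 4254 and 5972 normalized counts in WT SD, 1672 and 1760 in Ad-Yap/Taz-KO SD, 7068 and 7075 in WT HFD and 1731 and 1424 in Ad-Yap/Taz-KO HFD libraries, and then to Pkp2 and Epn2. The nearest genes of Folh1 were Thbd, Nid2 and Tsc22d2, those of Prr32 Lsm14b, Peg10 and Snap47, those of Ncan Dmtn, Itih5 and Nid1, and those of Golga7b Gnptab, Cd55 and Hprt. Nid1 and Nid2 encode the basement membrane proteins nidogen 1 and nidogen 2. Pcp4l1 was closest to Ndfip2, Cadm4 and Fads6, and Chl1 to Gm43011, Mapt and Igf2bp3, of which Mapt encodes the neuronal microtubule protein tau. Syngr1 was closest to Was (0.994), a regulator of actin in blood cells, and Spp1 (0.992), which encodes osteopontin, and then to Gm26780. Was had 24 and 7 normalized counts in WT SD, 130 and 113 in Ad-Yap/Taz-KO SD, 12 and 7 in WT HFD and 239 and 187 in Ad-Yap/Taz-KO HFD libraries.

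Nerve endings run through fat pads, so marker genes of nerve and of other cells were summed in every library. The 16 neuron markers summed to 282 and 290 normalized counts in WT SD, 336 to 437 in Ad-Yap/Taz-KO SD, 207 and 218 in WT HFD and 497 to 613 in Ad-Yap/Taz-KO HFD libraries, with Map2 and Prph the most abundant. The sum was lowest in the WT HFD libraries. In the 9 sympathetic nerve markers, led by Slc18a2 and Gata3, the sums were 185 and 190, 121 to 232, 87 and 101, and 174 to 233 in the same order of groups. The 15 Schwann cell and glia markers summed to 7762 to 10213, 5276 to 5870, 10137 to 10308 and 3539 to 3902, of which Scn7a alone had 7081 and 9502, 4515 and 5309, 9405 and 9199, and 3056 and 2740, followed by Mbp. The defining Schwann cell gene Sox10 had no more than 11 in any library. Between genotypes on HFD, 4 of 12 neuron markers tested were called higher (Map2, Slc17a7, Celf4 and Nefm) and 0 lower (median log2 change 1.51), and in WT adipocytes on HFD against SD 0 were higher and 1, Slc17a7, lower. Of the 5 sympathetic markers tested only Npy, neuropeptide Y, was called between genotypes on HFD, with normalized counts of 0 in all 4 WT libraries. The Ad-Yap/Taz-KO libraries held 13 and 20 on SD, and 78 and 45 on HFD. Of the 10 Schwann cell and glia markers tested 2 were higher, Prx among them, and 2 lower (Mbp and Scn7a). Between genotypes on SD, Elavl2 (0 and 0 against 25 and 36 normalized counts, limma adjusted p = 0.022) and Npy (limma adjusted p = 0.039) were called higher and Scn7a lower (log2 change -0.74, limma adjusted p = 0.023). Epididymal epithelium markers summed to at most 25 in any library. The part of these cells in the levels of the 9 genes was not tested.

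The adipocyte markers, led by Plin4 and Fabp4, summed to 265655 and 293883 normalized counts in WT SD, 212445 to 312316 in Ad-Yap/Taz-KO SD, 490981 to 498446 in WT HFD and 115651 to 232329 in Ad-Yap/Taz-KO HFD libraries. They moved in the direction of the 6 genes that were highest in WT HFD libraries: 11 of 12 were called lower between genotypes on HFD. On SD none of the 12 was called between genotypes and the sums overlapped. Of the 6 genes on SD, Sncg, Folh1 and Ncan were lower in the Ad-Yap/Taz-KO libraries without overlap. Golga7b was higher without overlap, and Slc5a7 and Prr32 overlapped. The part of adipocyte content in the levels of these genes was not tested. Macrophage markers, led by Lyz2 and Mrc1, summed to 4771 and 4844, 16410 to 29188, 2176 and 2283, and 29868 to 31807 in the same order of groups, and all 11 tested were called higher between genotypes on HFD and 9 on SD. Fibroblast and progenitor markers, led by Col3a1 and Col1a1, summed to 29865 to 36003, 32839 to 51692, 22120 to 22549 and 69749 to 78362. Endothelial markers, led by Cdh5 and Pecam1, summed to 26421 to 31610, 13575 to 24835, 15984 to 16541 and 20900 to 32279, and mesothelial markers, led by Wt1 and Upk3b, to 227 to 236, 287 to 414, 185 to 218 and 327 to 750. Against the WT HFD libraries, Syngr1, Pcp4l1 and Chl1 were higher in Ad-Yap/Taz-KO HFD libraries. So were the macrophage, fibroblast, endothelial, mesothelial, neuron and sympathetic sums, while the Schwann cell and adipocyte sums were lower. Chl1 ran against the macrophage, fibroblast and neuron sums between diets after the deletion, with 229 and 345 normalized counts on SD and 66 and 65 on HFD. The part of these cells in the levels of Syngr1, Pcp4l1 and Chl1 was not tested. In such bulk samples, fewer cells of a type and less RNA per cell cannot be told apart.

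**Figure D3:**
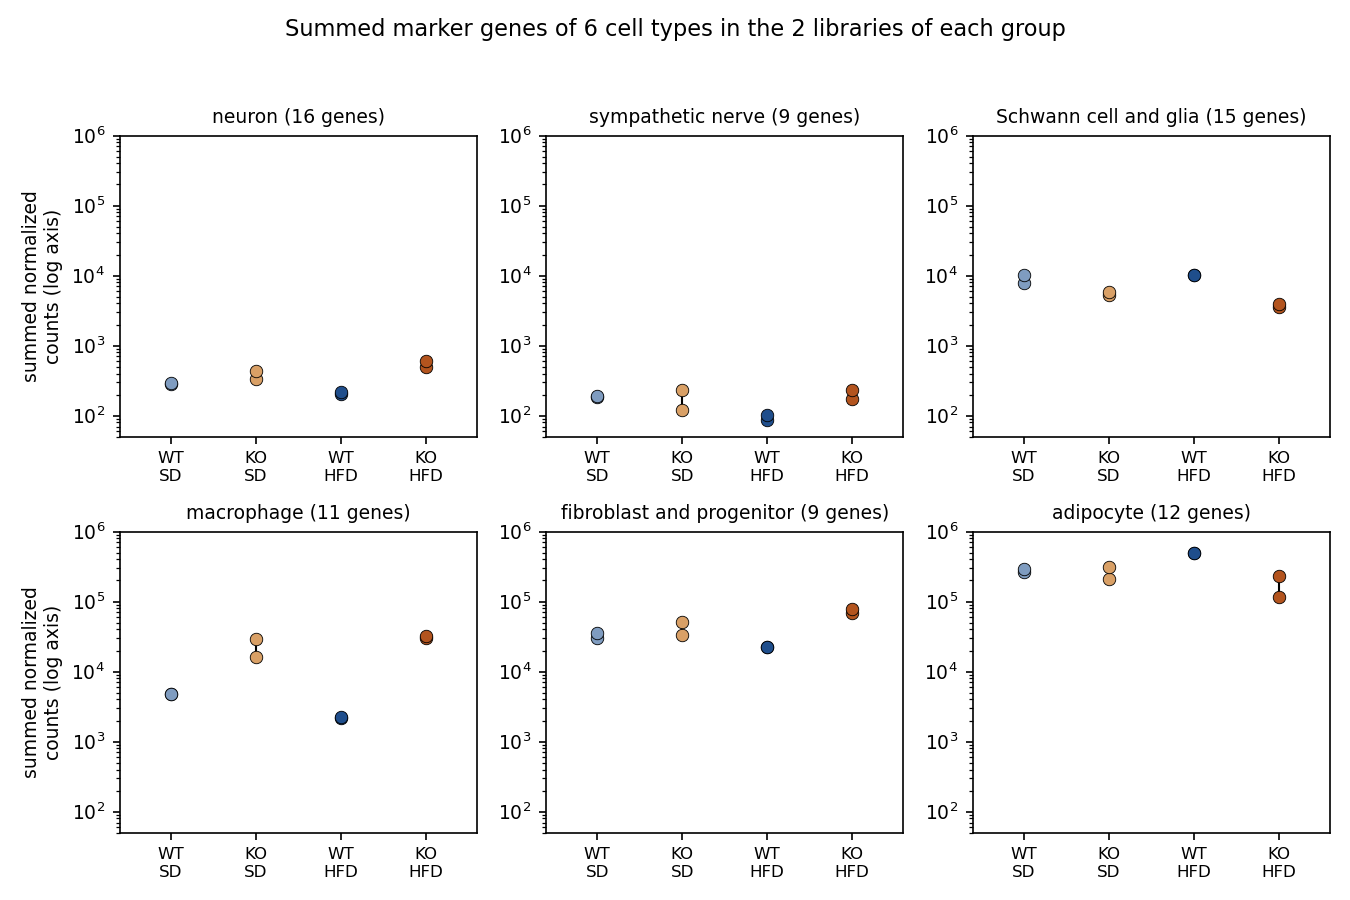
Summed normalized counts (log axis) of marker genes of 6 cell types in the 2 libraries of each group of genotype and diet, the number of genes summed in brackets. Points are libraries and lines join the libraries of a group. The neuron and sympathetic sums are lowest in the WT HFD libraries, and the macrophage sum is highest in the Ad-Yap/Taz-KO libraries (16410 to 31807).

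The relatives and partners of the 9 genes were listed by family and pathway, 175 genes in 7 lists, of which 137 were tested. Between genotypes on HFD, 33 (24.1 percent) were called higher and 21 (15.3 percent) lower in Ad-Yap/Taz-KO adipocytes, beside 17.1 and 15.1 percent of all genes tested. Their median log2 change was 0.27, beside 0.095 for all genes. On SD 6 were higher and 5 lower (4.38 and 3.65 percent). HFD against SD gave 15 higher and 16 lower calls in WT (10.9 and 11.7 percent) and 1 of each in Ad-Yap/Taz-KO adipocytes, Cd44 and Chka. By the interaction term, the effect of genotype differed between diets for 27 of the 137 list genes tested. Of the list genes, 8.76 percent were called with a positive term and 10.9 percent with a negative one, beside 17.4 percent of all genes in either direction. Scaling all libraries to the same total moved the median log2 change of all genes to 0.467 between genotypes on HFD and to -0.476 between diets in WT adipocytes, and turned these splits into 50 higher and 13 lower between genotypes on HFD, and 4 higher and 32 lower between diets in WT adipocytes. Tests are limma fits over all genes with Benjamini-Hochberg adjustment.

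**Figure D4:**
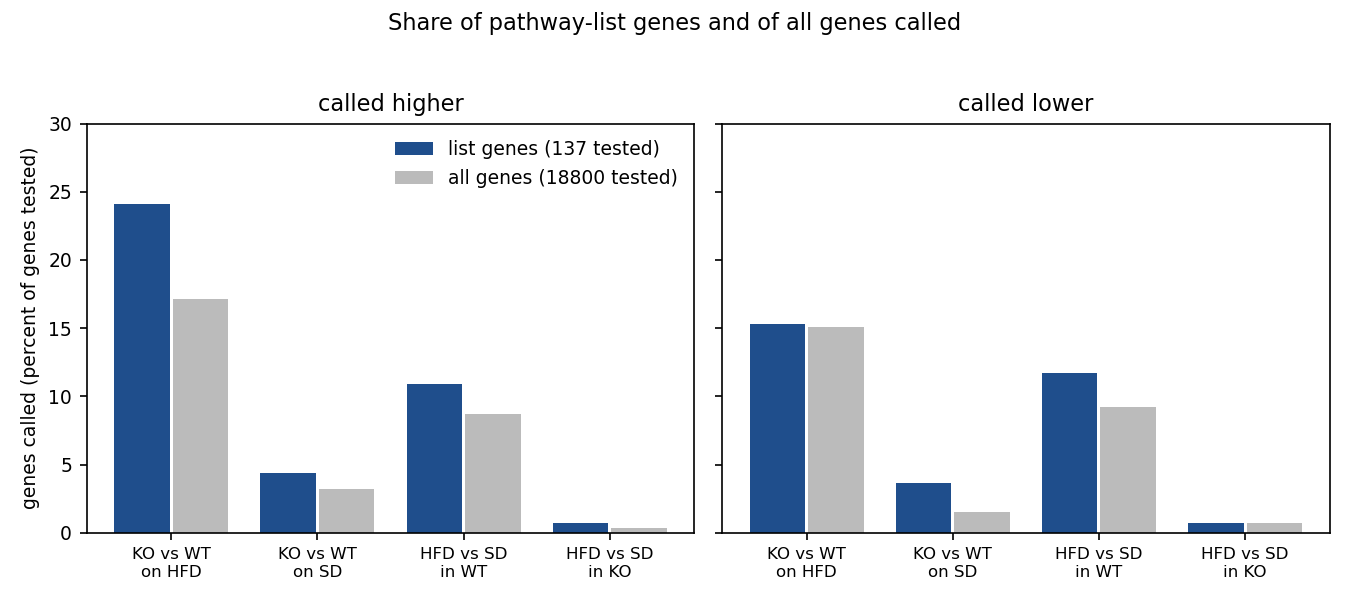
Percent of the 137 list genes tested (relatives and partners of the 9 genes, the 9 left out) and of all 18800 genes tested that were called higher (left) or lower (right) in 4 comparisons of genotype and diet. The widest gap in percentage points is for genes called higher in HFD-fed Ad-Yap/Taz-KO adipocytes (24.1 against 17.1 percent), and the largest ratio for genes called lower after the deletion on SD (3.65 against 1.5 percent).

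Among the vesicle proteins, synaptophysin (Syp), a major membrane protein of synaptic vesicles, was like Sncg lower in all Ad-Yap/Taz-KO than in all WT libraries. Syp had 65 and 93 normalized counts in WT SD libraries, 19 and 14 in Ad-Yap/Taz-KO SD libraries, 376 and 434 in WT HFD libraries and 18 and 17 in Ad-Yap/Taz-KO HFD libraries. It was lower in Ad-Yap/Taz-KO than in WT adipocytes by a log2 change of -4.45 on HFD (standard error 0.42, limma adjusted p = 7.4e-06) and of -2.19 on SD (standard error 0.42, limma adjusted p = 0.0084), and higher on HFD in WT adipocytes by 2.36 (standard error 0.42, limma adjusted p = 0.0035). The change on HFD kept its call in all 13 alternatives. The call on SD was lost without WT SD replicate 2 (-1.93) or with the compared groups alone, and that between diets without WT SD replicate 1 (2.11), without WT HFD replicate 2 (2.26) or when the WT HFD libraries counted as 1 sample (limma adjusted p = 0.056). Of the 24 synuclein and vesicle genes tested, 2 were called higher and 5 lower between genotypes on HFD. Rab3d, a small GTPase of secretory vesicles, dropped from 3103 and 2838 normalized counts to 1106 and 673 between genotypes on HFD (log2 change -1.78, limma adjusted p = 7.8e-05), and Syn2, synapsin 2, from 166 and 213 to 55 and 49 (-1.84, limma adjusted p = 0.0022). Both kept their calls in all alternatives.

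Relatives of Sncg and Syngr1 had the following levels. Beta-synuclein (Sncb) was at 0 in 7 libraries and at 4 in the remaining one. Synaptogyrin 2 (Syngr2), found in many tissues, had 370 and 357 in WT HFD and 612 and 492 in Ad-Yap/Taz-KO HFD libraries, a log2 change of 0.59 (limma adjusted p = 0.047) that lost its call in 10 of 13 alternatives, among them without any 1 of the 4 libraries (0.44 to 0.75). Syngr3 and Syngr4 had no more than 11 and 18 normalized counts in any library. Between diets in WT adipocytes, Syt7, a calcium sensor of exocytosis, fell by 1.35 on the log2 scale (limma adjusted p = 0.035) and Syn3 fell by 1.27 (limma adjusted p = 0.025). The call of Syt7 was lost in 5 of 13 alternatives, among them without WT SD replicate 1 (-0.91) or either WT HFD library (-1.42 and -1.29). That of Syn3 was lost in 6, among them without any 1 of the 4 libraries (-1.36 to -1.19).

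**Figure D5:**
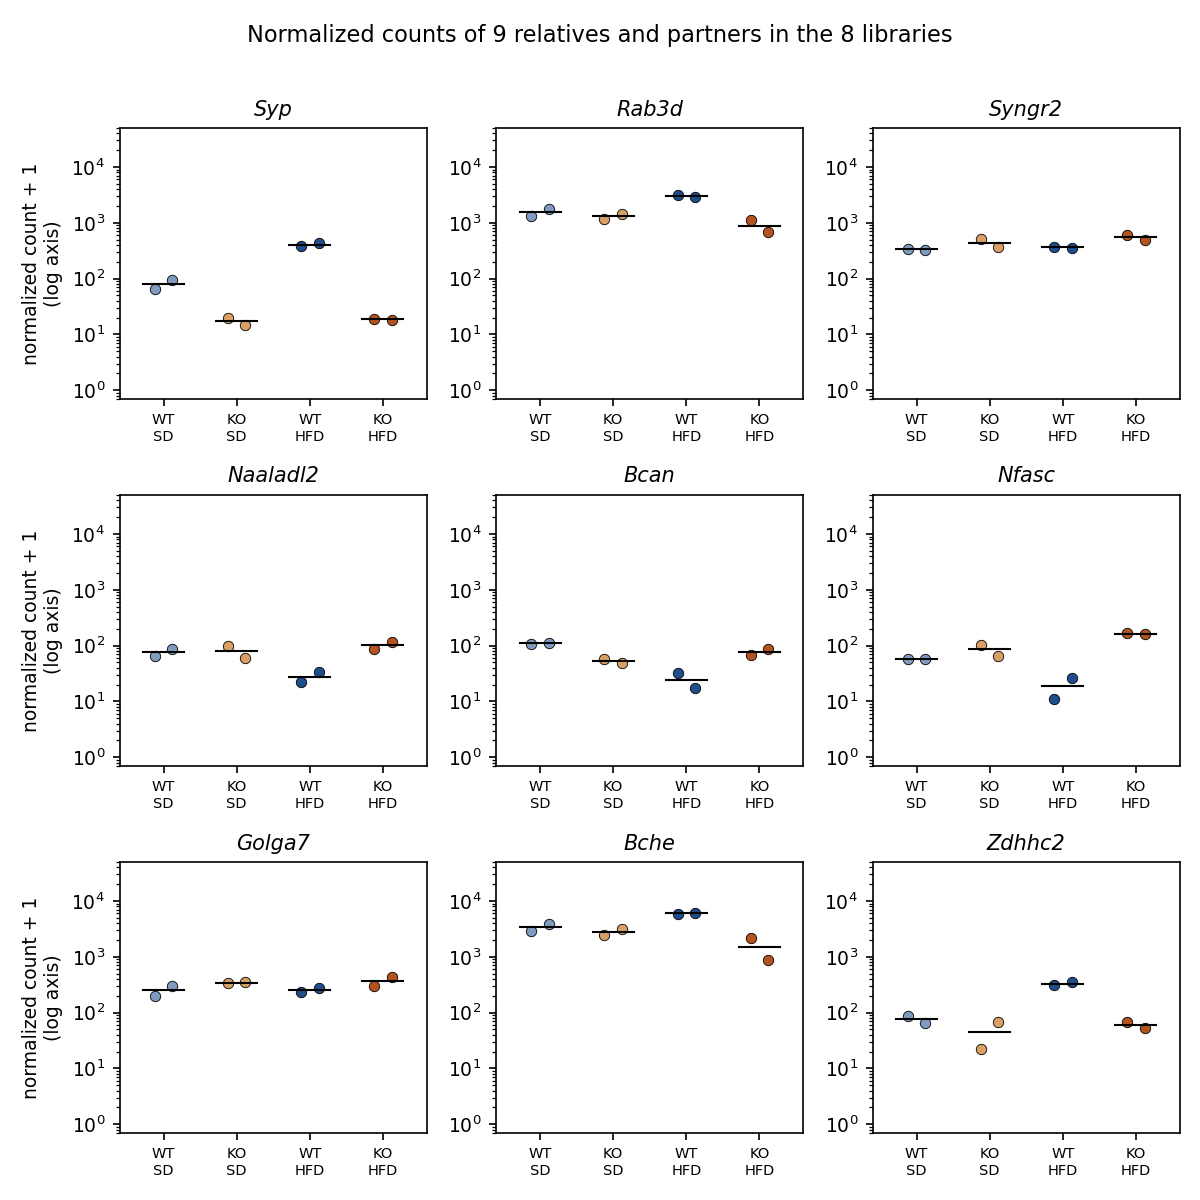
Normalized counts plus 1 (log axis) of 9 relatives and partners in the 8 libraries, by genotype (KO is Ad-Yap/Taz-KO) and diet. Points are libraries (2 a group) and bars are group means. Syp is highest in the WT HFD libraries (376 and 434) and low in all Ad-Yap/Taz-KO libraries (14 to 19), whereas Golga7 lies between 200 and 435 in all 8.

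The partners of Slc5a7 were listed among the genes of acetylcholine and choline handling. Chat, the enzyme that makes acetylcholine, was at 0 in 7 libraries and at 2 in the remaining one. Of the 22 genes tested, 7 were higher and 3 lower in Ad-Yap/Taz-KO than in WT adipocytes on HFD. Butyrylcholinesterase (Bche), which hydrolyses choline esters, had 2841 and 3876 normalized counts in WT SD, 2418 and 3103 in Ad-Yap/Taz-KO SD, 5815 and 6161 in WT HFD and 2140 and 868 in Ad-Yap/Taz-KO HFD libraries, a log2 change of -2.13 on HFD (standard error 0.31, limma adjusted p = 0.00026) that kept its call in all 13 alternatives. The receptors Chrm3 (4 and 13 against 38 and 91 normalized counts) and Chrna9 (7 and 4 against 52 and 37) rose by 2.84 and 2.83 on the log2 scale between genotypes on HFD (limma adjusted p = 0.0073 and 0.0086). These calls were lost for Chrm3 without WT HFD replicate 1 (2.10) or Ad-Yap/Taz-KO HFD replicate 2 (2.22), and for Chrna9 without WT HFD replicate 2 (2.49) or Ad-Yap/Taz-KO HFD replicate 1 (2.59). In WT adipocytes on HFD against SD, Slc44a4, Chrm3 and Ache, which encodes acetylcholinesterase, fell by 3.33, 2.80 and 1.95 (limma adjusted p = 0.01, 0.016 and 0.011), each losing its call in 5 alternatives, among them without either WT SD library or without WT HFD replicate 1 (Slc44a4 -3.47 to -2.99, Chrm3 -2.06 without WT HFD replicate 1, Ache -2.18 to -1.73). On SD, Chdh, the choline dehydrogenase, fell by 1.05 between genotypes (limma adjusted p = 0.044), and was not called in 8 of 13 alternatives, among them without Ad-Yap/Taz-KO SD replicate 1 (-0.52) or without either WT SD library (-1.03 and -1.08). Choline kinase alpha (Chka) fell by 0.99 between diets in Ad-Yap/Taz-KO adipocytes (limma adjusted p = 0.028), and was not called in 6 of 13 alternatives, among them without replicate 2 of either diet (-0.71 and -1.13).

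For Folh1, the list of related peptidases and of folate handling had 5 of 17 genes tested higher and 3 lower in HFD-fed Ad-Yap/Taz-KO adipocytes. Its relatives Naalad2 and Naaladl2 moved against it: Naalad2 had 290 and 205 normalized counts in WT HFD and 388 and 509 in Ad-Yap/Taz-KO HFD libraries (log2 change 0.86, limma adjusted p = 0.018), and Naaladl2 21 and 32 against 87 and 115 (1.91, limma adjusted p = 0.0048). Naalad2 lost its call without WT HFD replicate 2 (0.61), without Ad-Yap/Taz-KO HFD replicate 2 (0.67) or when the WT HFD libraries counted as 1 sample (limma adjusted p = 0.082), and Naaladl2 lost it without Ad-Yap/Taz-KO HFD replicate 2 (1.71). Naaladl1 had no more than 16 in any library. The folate receptor gene Folr2 rose by 2.98 (20 and 5 against 55 and 140, limma adjusted p = 0.0091), not called without WT HFD replicate 2 (2.08) or Ad-Yap/Taz-KO HFD replicate 2 (2.32), and the folate transporter gene Slc46a1 fell by 1.37 (141 and 134 against 54 and 51, limma adjusted p = 0.0085), not called without WT HFD replicate 1 (-1.34) or when the WT HFD libraries counted as 1 sample (limma adjusted p = 0.057). On SD, Mthfd2, a mitochondrial folate enzyme, rose by 1.21 (limma adjusted p = 0.014), not called without WT SD replicate 2 (1.01), without Ad-Yap/Taz-KO SD replicate 2 (1.03) or with the compared groups alone. Between diets in WT adipocytes Naaladl2 fell (65 and 87 to 21 and 32 normalized counts) and Ggh, gamma-glutamyl hydrolase, rose by 0.86 (limma adjusted p = 0.03 and 0.013), and each lost its call in 6 of 13 alternatives, among them without any 1 of the 4 libraries (Naaladl2 -1.79 to -1.21, Ggh 0.77 to 0.96).

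Versican and brevican, lecticans like neurocan, were higher in Ad-Yap/Taz-KO than in WT adipocytes on HFD, where Ncan was lower. Versican (Vcan) had 1072 and 1006 normalized counts in WT SD, 1757 and 900 in Ad-Yap/Taz-KO SD, 544 and 657 in WT HFD and 1363 and 1719 in Ad-Yap/Taz-KO HFD libraries, a log2 change of 1.35 between genotypes on HFD (standard error 0.26, limma adjusted p = 0.0016) that kept its call in all 13 alternatives. Brevican (Bcan) had 106 and 110, 56 and 48, 31 and 16, and 67 and 86 in the same order, a rise of 1.72 between genotypes on HFD (limma adjusted p = 0.0097) and a fall by 2.22 between diets in WT adipocytes (limma adjusted p = 0.006). The first call was lost without WT HFD replicate 2 (1.27) or Ad-Yap/Taz-KO HFD replicate 2 (1.54), and the second without WT SD replicate 1 (-2.25) or WT HFD replicate 2 (-1.77). On SD, Bcan was not called between genotypes (-1.04, limma adjusted p = 0.25). Between diets in WT adipocytes Vcan had a log2 change of -0.80 (limma adjusted p = 0.048), a call lost in 8 of 13 alternatives. Aggrecan (Acan) ranged from 5 to 64 normalized counts and was called in none of the 4 comparisons of genotype or diet. Of the 20 lectican and matrix genes tested, 8 were higher and 2 lower in HFD-fed Ad-Yap/Taz-KO adipocytes. Cd44, a hyaluronan receptor that white blood cells also carry, rose from 868 and 937 to 9286 and 8569 (3.30, limma adjusted p = 9.5e-08), and on SD from 910 and 940 to 5956 and 4025 (2.40, limma adjusted p = 7.8e-06), while Has2, a hyaluronan synthase, and Cspg5 each rose by 2.41 on HFD (limma adjusted p = 0.0028 and 0.0044). These 4 calls held in every alternative, and the macrophage marker sums were higher in the same comparisons. Between diets in Ad-Yap/Taz-KO adipocytes Cd44 rose by 0.87 (limma adjusted p = 0.041), a call lost in 9 of 13 alternatives, among them without replicate 2 on SD (0.58) or either replicate on HFD (0.81 and 0.92). Cspg4, the proteoglycan NG2, rose by 1.49 between diets in WT adipocytes (868 and 851 to 2431 and 2410, limma adjusted p = 0.0028), also in every alternative.

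The other adhesion molecules of the L1 family were, like Chl1, higher in Ad-Yap/Taz-KO than in WT adipocytes on HFD. Neurofascin (Nfasc) had 56 and 56 normalized counts in WT SD, 103 and 65 in Ad-Yap/Taz-KO SD, 10 and 25 in WT HFD and 164 and 161 in Ad-Yap/Taz-KO HFD libraries, a log2 change of 3.27 between genotypes on HFD (standard error 0.48, limma adjusted p = 0.00024) that kept its call in all 13 alternatives. Nrcam rose from 31 and 18 to 94 and 101 (2.00, limma adjusted p = 0.0074) and L1cam from 61 and 55 to 99 and 230 (1.37, limma adjusted p = 0.031). Nrcam was not called without WT HFD replicate 2 (1.62) or Ad-Yap/Taz-KO HFD replicate 2 (1.95), and L1cam not in 6 of 13 alternatives, among them without either WT HFD library (1.29 and 1.44) or Ad-Yap/Taz-KO HFD replicate 2 (0.76). In this list 7 of 18 genes tested were higher and 2 lower on HFD. The receptor phosphatase gene Ptprf was lower in Ad-Yap/Taz-KO adipocytes by -2.21 on HFD (1385 and 1143 against 338 and 216, limma adjusted p = 1.3e-05), and Ezr, the membrane linker ezrin, was higher by 2.06 (limma adjusted p = 4.7e-05), both in every alternative. Ptprf, Ezr and the ankyrin gene Ank2 changed the same way on SD by -1.07, 1.11 and -0.92 (limma adjusted p = 0.013, 0.02 and 0.0074). Without WT SD replicate 2 none of these 3 was called on SD (-0.94, 1.10 and -0.72), and of 13 alternatives Ptprf lost this call in 4, Ezr in 5 and Ank2 in 1. Between diets in WT adipocytes Nfasc, Ncam2 and Ank3 fell by 1.75, 2.83 and 1.44 (limma adjusted p = 0.024, 0.013 and 0.033), as Chl1 was lower, and all 3 lost their calls without WT SD replicate 1 (-1.75, -2.41 and -1.71). In all, Nfasc and Ank3 each lost it in 6 of 13 alternatives and Ncam2 in 4 of 12.

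Golga7, the close relative of Golga7b, was called in no comparison, with 200 to 435 normalized counts in all libraries and a log2 change of 0.51 between genotypes on HFD (limma adjusted p = 0.15). Zdhhc5, the palmitoyl transferase that Golga7b accompanies, had 2611 and 2561 normalized counts in WT HFD and 1847 and 1724 in Ad-Yap/Taz-KO HFD libraries, a log2 change of -0.53 that is under the limit of 0.59. Zdhhc2, another palmitoyl transferase, had 84 and 65 in WT SD, 21 and 68 in Ad-Yap/Taz-KO SD, 307 and 345 in WT HFD and 67 and 52 in Ad-Yap/Taz-KO HFD libraries. It was lower in HFD-fed Ad-Yap/Taz-KO adipocytes by -2.44 (standard error 0.48, limma adjusted p = 0.0018), in every alternative, and higher on HFD in WT adipocytes by 2.12 (limma adjusted p = 0.01), a call that was lost in 6 of 13 alternatives, among them without any 1 of the 4 libraries (1.94 to 2.31). Of the 22 genes tested in this list, 3 were higher and 4 lower between genotypes on HFD, among them Zdhhc14 (1.67, limma adjusted p = 0.0012) and the depalmitoylating enzyme gene Lypla1 (-1.18, limma adjusted p = 0.00045), both in every alternative. Between diets in WT adipocytes 5 were higher and 0 lower, with Zdhhc6 at 1.01 and Zdhhc9 at 0.89 (limma adjusted p = 0.0074 and 0.034). Zdhhc6 lost its call in 4 of 13 alternatives, among them without WT SD replicate 2 (0.86) or WT HFD replicate 2 (0.89), and Zdhhc9 in 9, among them without any 1 of the 4 libraries (0.68 to 1.09).

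Of the 14 calmodulins and calmodulin-binding genes listed beside Pcp4l1, 1 was higher and 2 lower in HFD-fed Ad-Yap/Taz-KO adipocytes. Camk1d, a calmodulin-dependent kinase, rose from 112 and 122 to 517 and 618 normalized counts (2.26, limma adjusted p = 2.8e-05), and on SD from 146 and 104 to 469 and 374 (1.76, limma adjusted p = 0.001), both in every alternative. The calmodulin gene Calm3 fell from 5398 and 5478 to 2470 and 2204 on HFD (-1.22, limma adjusted p = 8.7e-05), also in every alternative, and rose by 0.76 between diets in WT adipocytes (limma adjusted p = 0.0071), where it was not called in 5 of 13 alternatives, among them without WT SD replicate 1 (0.58) or without either WT HFD library (0.75 and 0.77). Camk1 fell by 0.61 on HFD (limma adjusted p = 0.039), a call lost in 9 of 13 alternatives, among them with all libraries scaled to the same total (-0.23) and without Ad-Yap/Taz-KO HFD replicate 2 (-0.35).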

How the data were processed

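RNA of isolated epididymal white adipocytes was measured in 8 libraries, 2 for each genotype and diet. The deposited values are treated as a score: per the submitters' processing notes, which name STAR 2.5.2b, featureCounts 1.5.1 and DESeq2 1.14.1, the authors made gene counts on GRCm38 and divided them by a size factor for each library, and the values were rounded to whole numbers, so that reads could not be recovered exactly. A count model was therefore replaced by limma 3.58.1 (R 4.3.3) with a mean-variance trend on log2(value + 1), fitted to all 8 libraries with 4 group means (4 residual degrees of freedom), for the 18800 genes that averaged 5 or more. A fold change on this scale understates that of low genes. Calls needed an adjusted p (Benjamini-Hochberg) no higher than 0.05 together with a log2 change of 0.59 or more in size. The fit was tested on simulated data. An exact permutation test of 2 against 2 libraries cannot go below p = 0.333, and none was run for single genes. The study describes repeats as separate mice, and no libraries are matched between groups.

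The 9 genes and the lists of relatives and markers were chosen with earlier results of these data known. From each pathway list the text names the direct relatives and, per comparison, up to 3 called genes with the largest change, a mean of at least 20 and groups that did not overlap. From each marker list it names the most abundant genes. Some listed genes are not reported here. The 3 genes nearest in pattern to each of the 9 are named as well. Other genes it names (Chat, Zdhhc5, Sox10, Elavl2, Npy, Slc17a7, Celf4, Nefm and Prx) were chosen after their values were seen. Alternatives were other pseudocounts, filters and scalings, a fit of the compared groups alone, a replicate block, the WT HFD libraries counted as 1 sample, and leaving out each library. Gene models were GENCODE vM21 and promoter windows RefSeq. Python 3.11.15 was used.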

Additional observations from a re-analysis of the deposited data

Results flagged for a closer look

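The interaction term of the limma fit (log2 effect on HFD minus that on SD, with adjusted p) was called for 20 of the named relatives and partners. Most of these were named for calls in comparisons that enter this term, so their number is no result about them. Over all list genes tested, 8.76 percent were called with a positive term and 10.9 percent with a negative one. The share of all genes was 17.4 percent in either direction. Among vesicle genes the difference was -2.27 for Syp (0.023), -2.14 for Syn2 (0.017), -1.56 for Rab3d (0.0093) and 1.96 for Syt7 (0.034). Among acetylcholine genes it was 3.77 for Chrm3 (0.023), 3.04 for Ache (0.0096) and -1.86 for Bche (0.016). In the peptidase and folate list it was -1.82 for Slc46a1 (0.025), -1.36 for Ggh (0.011) and 1.12 for Naalad2 (0.047). Among matrix genes it was 0.90 for Cd44 (0.03), 2.77 for Bcan (0.014), 3.32 for Acan (0.037) and -1.33 for Cspg4 (0.027). Among adhesion genes it was 2.73 for Nfasc (0.018), -1.15 for Ptprf (0.027) and 1.97 for Ank3 (0.041). Calm3 had -0.85 (0.022), Lypla1 -1.13 (0.015) and Zdhhc6 -1.53 (0.0079). With the WT HFD libraries counted as 1 sample, the interaction was called for 2 of the list genes.

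Golga7b and Pcp4l1 had differences in opposite directions, each between groups that did not overlap. The share of all genes with such a pattern was not counted. The knockout effect on Golga7b was -3.55 on HFD and 1.85 on SD, a difference of -5.40, and the diet effect on Pcp4l1 was -5.12 in WT adipocytes and 2.82 after the deletion, a difference of -7.94 (all log2). These differences were not tested, since such values selected the genes.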

How the results depend on the processing

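Of 324 alternative values of the log2 differences of the 9 genes, 274 moved by less than the spread between replicates and 50 by more. The 274 are no measure of stability. Leaving out 1 library or averaging the WT HFD pair moves a group mean by only a part of its replicate difference. All 36 values with the WT HFD libraries as 1 sample were among the 274. Of 746 alternative values of the named relatives, partners and targeted genes, 569 kept their call, 177 lost it and none changed sign. The counts moved most. Between genotypes on HFD, 6053 genes were called, 3629 to 5837 when 1 library was left out and 3445 with both WT HFD libraries as 1 sample, and among list genes 54, 30 to 48 and 31. On SD the counts were 886, 381 to 778 without 1 library, 438 with no filter and 461 with the compared groups alone, and among list genes 11, 3 to 9, 6 and 5, with 7 for the WT HFD libraries as 1 sample. Between diets in WT adipocytes they were 3377, 628 to 1400 without 1 library, 1701 with no filter and 539 with both WT HFD libraries as 1 sample, and among list genes 31, 6 to 13, 15 and 3. Between diets in Ad-Yap/Taz-KO adipocytes they were 202, 14 to 961 without 1 library (lowest without Ad-Yap/Taz-KO SD replicate 2, highest without replicate 1), 112 and 330 with pseudocounts of 0.1 and 8, 3 with no filter, 28 with both WT HFD libraries as 1 sample, 112 with the replicate block and 0 by limma with the compared groups alone, where 2059 genes had an unadjusted p under 0.05. Among list genes they were 2, 0 to 8, 0 and 4, 0, 0, 1 and 0. The interaction gave 3274 genes, 530 to 4249 without 1 library, 721 with no filter and 517 with both WT HFD libraries as 1 sample, and among list genes 27, 3 to 42, 4 and 2. The cause was not tested. Scaling to the same total changed the split of all genes called from 3213 higher and 2840 lower to 4618 and 1367 between genotypes on HFD, from 1643 and 1734 to 470 and 3568 between diets in WT adipocytes, and from 1633 and 1641 to 2611 and 619 for the interaction.

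Replicate numbers share no stated animal or batch: the correlation of same-numbered replicate differences ran from -0.30 to 0.11 between groups. With the replicate block, the list genes called were 47, 8, 27, 1 and 21 in the order above. With 2 libraries a group, calls that use the WT HFD group rest on 1 estimate of the spread shared with the others. Its libraries were unusually alike at 1000 to 5000 reads. Folds of genes near the floor are less certain than counting error alone gives. At 5 to 20 reads, replicates differed by a squared amount 4.68 to 6.47 times the counting variance.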
